A study of Tupaia belangeri with 6 samples.

Results

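TOMM40, APOE, APOC1 and NECTIN2 are neighbouring genes, and they were described here in hippocampal nuclei of the tree shrew (TS, Tupaia belangeri), a small mammal related to primates. The members were taken by gene symbol from the annotation of the count matrices. Of the 4 symbols, 3 were found among 83605 features, namely TOMM40 (TSDBGID.1017), APOE (TSDBGID.18294) and NECTIN2 (TSDBGID.1016), and APOC1 was not analysed here because no feature carried its name. The set was proposed after a high TOMM40 count in astrocytes had been seen, so the levels of TOMM40 across classes of nuclei are given as a description, with no test.

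Single-nucleus RNA sequencing (snRNA-seq) with the 10x Genomics 3' chemistry had been run on the hippocampus of 3 control TSs and 3 TSs with Alzheimer's-like pathology (ALP). No gene was altered in either group. All animals were aged 5 to 6 years, the ALP TSs were chosen from a large colony for poor performance in a pipeline maze with natural aging, and the controls were healthy animals of matched age. The labels give no sex, batch or date, so these could not be fitted. The p-values below rest on the spread between 3 libraries per group, whatever its source. A difference of sex or batch between the groups could not be told apart from ALP.

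The 6 libraries held 3011 to 8785 barcodes and 19182981 to 35898940 unique molecular identifiers (UMIs, 1 per captured RNA molecule), and 28239 of 37603 barcodes were kept as nuclei, 14390 from controls and 13849 from ALP TSs. Control 2 stood apart with 1616 kept nuclei and with 46.3% of its barcodes above the limit of 2500 genes. Barcode sequences shared by 2 libraries numbered at most 18 in any pair. Nuclei were clustered without the member genes, and classes were called "like" a cell type from marker genes. The markers MOBP, NRGN, GAD2, SLC32A1, ACTA2, MKI67 and THEMIS had 0 UMIs in every barcode, so 7 of the 88 markers were of no use, and 3522 kept nuclei stayed unnamed. A Choroid-like class of 20 nuclei, absent from Control 2, was too small for the comparisons and was left out.

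The members belong to a conserved gene neighbourhood that is known for its association with Alzheimer's disease in humans. TOMM40 encodes the channel of the TOM complex, through which proteins made in the cytosol enter mitochondria. APOE encodes the main lipid carrier of the brain, which is made chiefly by astrocytes and by activated microglia, and APOC1 encodes a small apolipoprotein that is also carried on lipoprotein particles. NECTIN2 encodes an adhesion molecule of the immunoglobulin family at cell junctions. In the RefSeq annotation of TupChi_1.0, whose coordinates were not used because the build of the files is not given, the order is NECTIN2, TOMM40, APOE and APOC1, with TOMM40 directly next to APOE. In the annotation of the counts the identifiers are consecutive for NECTIN2 and TOMM40 but not for TOMM40 and APOE. Gene positions in that annotation were not available, so the order there was not read.

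APOE was nearly absent from these counts, whereas TOMM40 was abundant. Over all 37603 barcodes APOE had 3 UMIs, of which 1 was in ALP 2, 2 were in ALP 3 and 0 were in ALP 1 and in the 3 controls. TOMM40 had 10475, 5388 and 9143 UMIs in Control 1 to 3 and 6297, 11942 and 9516 in ALP 1 to 3, or 52761 in all. That is 17587 TOMM40 UMIs for each APOE UMI, with an exact 95% interval of 6017.6 to 85283.8 that covers counting error only. NECTIN2 lay far below TOMM40, with 126, 56 and 120 UMIs in Control 1 to 3 and 63, 92 and 54 in ALP 1 to 3. Antisense or long noncoding features named after a member were almost empty: the 4 TOMM40 antisense features had 0 to 8 UMIs, the 2 named after PVRL2, an older symbol of NECTIN2, had 0 and 13, LINC-NECTIN2-1 had 19 and APOC1-AS-1 had 2.

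A count as low as that of APOE was common over the whole annotation, but empty features were rarer in most gene lists used here. Of the 27777 features with a TreeshrewDB identifier, 8419 (30.3%) had 0 UMIs in all barcodes and 9484 (34.1%) had no more than APOE. Features with 0 UMIs made up 9.09% of the lipoprotein list, 0% of the nectin list, 7.95% of the class markers and 40.9% of the mitochondrial import list. TOMM40 was at the other end, since 309 features, TOMM40 included, had at least its UMIs (1.11%). Beyond APOE, near-empty features included genes that cells use widely. Examples from the import list are TOMM20, the receptor subunit of the TOM complex, and VDAC1, the main pore of the mitochondrial outer membrane, both with 0 UMIs.

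In Astro-like nuclei APOE had 1 UMI in 1 of 3236 nuclei (0.0309%, exact 95% interval 0.000782 to 0.172%). In Micro-like nuclei it had a UMI in 0 of 1613, which allows a share of up to 0.186% by the floor of 3 counts (upper end of the exact 95% interval 0.228%). The only other kept nucleus with an APOE UMI was Endo-like, and the third barcode exceeded the limit on genes. All 3 barcodes came from ALP TSs and also held TOMM40, with 4, 28 and 80 UMIs among 1412, 3798 and 11162 UMIs in all. Set against a floor of 3 APOE counts per library, TOMM40 was at least 345-fold to 995-fold higher than APOE in Astro-like nuclei of the 5 libraries without an APOE UMI. In ALP 3 the ratio was 2284 (exact 95% interval 409.5 to 90252.2). In Micro-like nuclei the corresponding lower bounds ran from 69-fold in Control 2 to 789-fold in ALP 2. With so few APOE counts, neither a TOMM40 to APOE ratio by group nor joint detection in single nuclei could be tested, and a likeness to APOE could not be computed.

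Among the named classes TOMM40 was highest in Micro-like nuclei, high in Endo-like and Astro-like nuclei, and lowest in the neuronal classes. All levels are CPM, the gene's UMIs scaled to 1000000 UMIs of the class in a library. In Micro-like nuclei, which carry markers of microglia, the resident immune cells of the brain, the level was 1819, 2014 and 2092 in Control 1 to 3 and 4030.4, 4384 and 5000.4 in ALP 1 to 3. In Astro-like nuclei it was 1264, 1388 and 865 in Control 1 to 3 and 2719, 2135 and 2356 in ALP 1 to 3. In both classes the lowest ALP library lay above the highest control library. The share of all genes that separate in this way is not given here, so this is a description only. By its UMIs TOMM40 ranked 3rd of 32339 detected features in Micro-like nuclei and 21st of 37547 in Astro-like nuclei, but 795th of 41102 in InN-like nuclei (inhibitory neurons); these ranks are not per length.

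**Figure D1:**
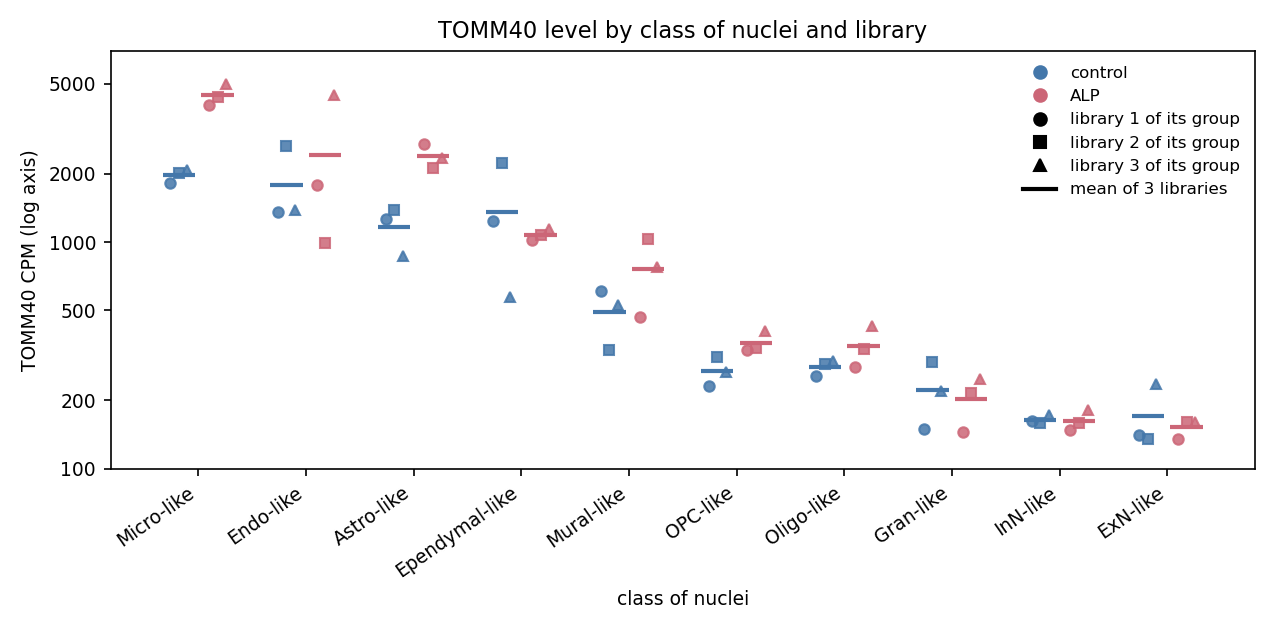
TOMM40 level (CPM, log axis) in the 10 named classes with at least 10 nuclei in every library, ordered by the mean over 6 libraries; each point is a library, its shape gives the library number and bars are group means. Control and ALP points do not overlap in the Micro-like, Astro-like and OPC-like classes, and the neuronal classes lie lowest. No share of separated genes over all genes is given beside this.

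The remaining classes formed a graded series. Endo-like nuclei (endothelial cells, which line vessels) had a mean of 2106 ± 1289 (SD, n = 6 libraries), with a range from 993 in ALP 2 to 4469.0 in ALP 3. In ALP 3 a single Endo-like nucleus held 149 of the 284 TOMM40 UMIs. The place of Endo-like above Astro-like nuclei rested on that library: the medians of 6 libraries were 1585 and 1762 CPM, and the means without ALP 3 were 1633.0 and 1674 CPM. Ependymal-like nuclei, of the ciliated ventricle lining, had 1217 ± 554.0, and Mural-like nuclei, of the vessel wall, had 626 ± 249. OPC-like nuclei (oligodendrocyte precursors) and Oligo-like nuclei (myelin-forming cells) had 315 ± 61.5 and 315 ± 60.0. The neuronal classes were lowest, with 213 ± 58.1 in Gran-like nuclei (dentate granule neurons), 164 ± 11.9 in InN-like nuclei and 161 ± 38.3 in ExN-like nuclei (other excitatory neurons).

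Within libraries, Micro-like nuclei exceeded Astro-like nuclei in 6 of 6, by a mean of 1.79-fold (log2 ratio 0.84 ± 0.33), and Astro-like nuclei exceeded InN-like nuclei in 6 of 6, by 10.1-fold. Neighbours in the order were less distinct: Micro-like nuclei exceeded Endo-like nuclei in 5 of 6 libraries, Endo-like exceeded Astro-like in 4 and Astro-like exceeded Ependymal-like in 5. OPC-like nuclei exceeded Oligo-like nuclei in 3 of 6, Oligo-like exceeded Gran-like in 5, and Gran-like exceeded InN-like and InN-like exceeded ExN-like in 4 each. Only Ependymal-like over Mural-like and Mural-like over OPC-like kept their order in all 6 libraries. Astro-like nuclei made up 11.5% of kept nuclei and held 30.3% of TOMM40 UMIs, and Micro-like nuclei made up 5.71% and held 22.6%.

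Many UMIs of TOMM40 were found in single Micro-like and Astro-like nuclei. In Micro-like nuclei 34.0% held 5 or more TOMM40 UMIs, against 22.0% of Astro-like nuclei and 0.452% of InN-like nuclei, although InN-like nuclei had a median of 4290 UMIs and Micro-like and Astro-like nuclei 1108 and 1880. The share was 15.2% in Endo-like, 14.8% in Ependymal-like and 3.87% in Mural-like nuclei. It was 0.0735% in OPC-like and 0.0725% in Oligo-like nuclei, so it was not a trait of all glia. The highest count in a nucleus was 50 in Micro-like, 76 in Astro-like and 149 in Endo-like nuclei, against 14 in InN-like nuclei.

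TOMM40 also varied within the glial classes. Among Astro-like nuclei, a cluster of 113 nuclei led by SERPINA3 and GFAP, genes of reactive astrocytes, had 6532 ± 1159 CPM in the 3 controls and 8017 ± 1757 CPM in the 3 ALP libraries (mean ± SD), with overlap between groups. The main Astro-like cluster of 3123 nuclei had 974 ± 187 and 2205 ± 338, without overlap. Among Micro-like nuclei the smaller cluster was the lower one. The cluster led by CLEC6A and GPNMB (173 nuclei, of which 14.45% were marked as doublets) had 786 ± 355 in controls and 1783 ± 227 in ALP TSs, below the main cluster of 1440 nuclei with 2362 ± 412 and 5962 ± 1053. These clusters differed in depth, with a median of 3650 UMIs in the GPNMB cluster and 1040 in the main Micro-like cluster. Split by a GPNMB UMI instead, Micro-like nuclei with such a UMI (151 nuclei) had 2355 ± 1577 in controls and 3636 ± 405 in ALP TSs. Nuclei without it had 1859 ± 232 and 4674 ± 709. The higher control mean with a GPNMB UMI rested on Control 2, at 4077 from 5 nuclei, against 1636 without it. In Control 1 and Control 3 the nuclei with it were lower, at 982 and 2005 against 1843 and 2098, from 14 and 15 nuclei.

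High TOMM40 levels were not confined to named glia. Among unnamed nuclei, a cluster of 380 led by haemoglobin genes HBG and HBQ1 and a mitochondrial RNA feature had a TOMM40 level of 2798 CPM, pooled over libraries, and a shallow cluster of 676 led in part by ribosomal protein features had 1733 CPM. Their median depths were 941.5 and 743 UMIs. The largest unnamed cluster, 1774 nuclei with markers of excitatory neurons and a median of 720 UMIs, had 540.7 CPM. A Gran-like cluster of 126 nuclei had 653.6 CPM, against 182.6 CPM in the main Gran-like cluster. Low TOMM40 was therefore a trait of the named neuronal classes as a whole, not of every cluster with neuronal markers. The part of RNA from outside the nuclei in the TOMM40 levels was not tested.

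The genes of mitochondrial protein import with enough counts lay near their neuronal level in glia, unlike TOMM40. On the scale of log2(mean CPM + 1), TOMM40 was 3.31 higher in Astro-like than in the neuronal classes and 4.16 higher in Micro-like nuclei. Of 22 import genes found, 9 had 0 UMIs and 12 had at least 100 UMIs in kept nuclei. Those 12 had a median of -0.10 in Astro-like nuclei, from -1.17 for TIMM44, a motor subunit of the inner membrane, to 0.78 for MTX1, an outer membrane assembly factor, and a median of 0.15 in Micro-like nuclei. The 4 import genes with most UMIs were MTX2, TIMM44, TOMM70 and VDAC3, with -0.72, -1.17, -0.43 and 0.53 in Astro-like nuclei. TOMM40L, the paralog of TOMM40, had 526 UMIs in kept nuclei, with 0.06 in Astro-like and 0.00 in Micro-like nuclei.

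The lipoprotein genes were spread widely. Of 33 found, 25 had at least 100 UMIs, with a median of 0.35 in Astro-like nuclei over neurons, from -2.40 to 3.06, and of 0.76 in Micro-like nuclei, from -1.44 to 4.65. In Astro-like nuclei 7 of the 25 lay above 1 and 5 below -1, and in Micro-like nuclei 12 and 3 did. The lowest in Astro-like nuclei were VLDLR, SCARB1 and LRP8, receptors for lipoproteins, and CYP46A1, which clears cholesterol from neurons, with -2.40, -2.18, -2.05 and -1.60. ABCA1, the cholesterol exporter that loads lipid onto apolipoproteins, had 3.06 and 2.93. CLU, an apolipoprotein of astrocytes, had 3.00 and 0.50, and TYROBP, the adaptor of microglial lipid receptors, had 0.44 and 4.65. TYROBP in Micro-like nuclei was the 1 value of this list above that of TOMM40, and none was above it in Astro-like nuclei. SORT1, SORL1 and NPC1, which sort or export lipid cargo in cells, had -0.62, 0.77 and 0.29 in Astro-like nuclei. These are differences between levels of the same gene, and levels of different genes were not compared per length.

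**Figure D2:**
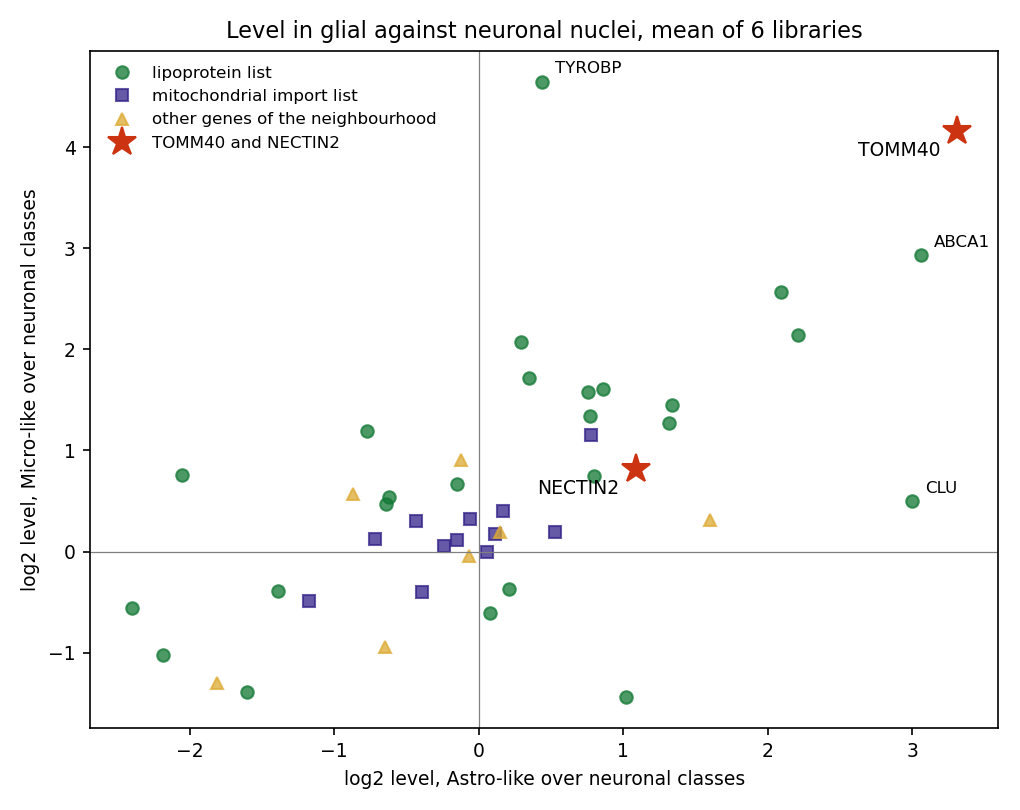
Log2 level over the 3 neuronal classes in Astro-like nuclei (x axis) and in Micro-like nuclei (y axis), from the mean CPM of 6 libraries plus 1, for genes with at least 100 UMIs in kept nuclei. TOMM40 lies at 3.31 and 4.16, import genes lie around 0, and ABCA1, at 3.06 and 2.93, is the nearest of the marked lipoprotein genes.

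Other genes of the neighbourhood were low in glia. Besides the members, 31 genes were looked for and 20 had a feature. Of the 31, 20 lie within 10 genes of the members in the RefSeq annotation. The rest were taken from the human gene order and were not placed near the members in the tree shrew. The highest mean level among all of them was 26.5 CPM in Astro-like nuclei and 38.2 in Micro-like nuclei. Both were for ERCC1, a DNA repair gene from the human order that was higher in neurons at 95.6. APOC4, an apolipoprotein gene beyond APOC1, had 3 UMIs. CLPTM1, a membrane protein gene, had 20.3 in Astro-like, 20.8 in Micro-like and 18.1 in neuronal nuclei. BCAM, the gene of a laminin-binding adhesion molecule on the far side of NECTIN2, had 457 in Endo-like nuclei and 7.57 in Astro-like nuclei.

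The features whose levels across 60 sums (6 libraries by 10 classes) were most like TOMM40 were CD74, the chaperone of MHC class II (Pearson's r = 0.827), ZFP36L1, a regulator of mRNA decay (0.824), TRIM5, an antiviral factor (0.821), GATM, an enzyme of creatine synthesis (0.814), and MAMU-DRA, an MHC class II chain (0.80). They were the top 5 of 19514 features with at least 100 UMIs, and the sums of a library share its depth and preparation. For the 12 import genes r ran from -0.283 to 0.398, and for 25 lipoprotein genes from -0.478 to 0.652. Whether UMIs assigned to TOMM40 hold reads of APOE transcripts could not be told from counts per gene and was not tested.

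TOMM40 was higher in ALP TSs than in control TSs in Astro-like and Micro-like nuclei. Counts were added up within each library and class, then fitted over all genes with edgeR's quasi-likelihood test, and a gene was called at a Benjamini-Hochberg adjusted p under 0.05 and a log2 fold change beyond 0.25. Of 13 tests of a member in a named class, 10 of TOMM40 and 3 of NECTIN2, 2 were called, both for TOMM40 and both higher in ALP TSs. Of all genes, 0.0984% of 10158 in Astro-like nuclei and 0.229% of 6539 in Micro-like nuclei were called higher. APOE did not reach the filter on low counts in any class.

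In Astro-like nuclei the normalised level of TOMM40 was 1165 ± 278.5 in controls and 2638.5 ± 419 in the ALP group (mean ± SD of 3 libraries per group), and the log2 fold change was 1.18 (SE 0.19, edgeR adjusted p = 0.0430). In Micro-like nuclei it was 2207 ± 276.5 and 5086 ± 616, with a log2 fold change of 1.21 (SE 0.23, edgeR adjusted p = 0.0396). All 3 ALP libraries lay above all 3 controls in both classes, again with no share over all genes to set this against. DESeq2 called 2.14% of all genes in Astro-like and 0.459% in Micro-like nuclei, counting both directions. It gave TOMM40 a DESeq2 adjusted p = 8.75e-05 and 3.35e-05. Counted in both directions, edgeR called 22 genes and DESeq2 217 in Astro-like nuclei, and 28 and 30 in Micro-like nuclei. With edgeR both calls sat near the threshold. In Astro-like nuclei the adjusted p rose to 0.121 without Control 3, 0.210 without ALP 1 and 0.274 without ALP 3, and in Micro-like nuclei it rose to between 0.0771 and 0.232 when any library but Control 2 was left out. Without the upper limit on genes per nucleus both calls were lost (edgeR adjusted p = 0.0692 and 0.113). Nuclei were clustered anew in that setting, and the Micro-like class held 1198 nuclei, against 1613 with the limit. A cluster of 1140 nuclei with microglial markers stayed unnamed there for its marked doublets. With marked doublets removed from the main classes the Micro-like call was lost (0.0722). The fold change stayed positive throughout, between 1.00 and 1.42 in Astro-like and between 1.10 and 1.35 in Micro-like nuclei over 16 alternatives each.

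The difference was also present in parts of each class, in fits added after seeing the data. The largest Astro-like cluster held 96.5% of the nuclei of its class in both groups. The largest Micro-like cluster held 93.1% in controls and 85.2% in ALP TSs. These fits therefore reuse most of the counts above and are not separate evidence. In the largest Astro-like cluster alone the log2 fold change was 1.31 (edgeR adjusted p = 0.0248), and in Astro-like nuclei without a GFAP UMI it was 1.42 (0.0167). In the largest Micro-like cluster it was 1.34 (0.0140), and in Micro-like nuclei without a GPNMB UMI it was 1.35 (0.0269).

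**Figure D3:**
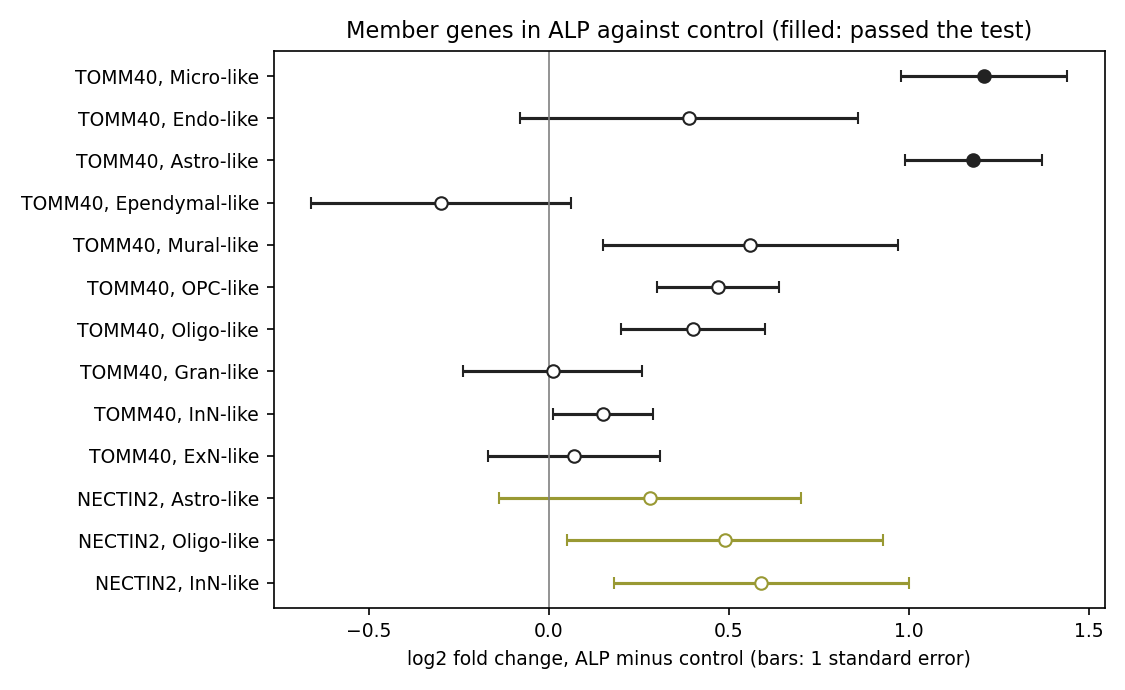
Log2 fold change of TOMM40 and NECTIN2 in ALP against control nuclei of each tested class (edgeR, bars 1 standard error, 3 libraries per group; filled points passed the test). TOMM40 in Micro-like (1.21) and Astro-like nuclei (1.18) are the 2 filled points.

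Summed marker levels of some cell types did not overlap between the groups. Of 13 marker lists, this held for 5 in Astro-like and 3 in Micro-like nuclei. An exact two-sided permutation test of 3 against 3 libraries gives p = 0.1 for any such separation. No share of separated genes over all genes is given here, so neither these counts nor the separation of TOMM40 can be set against one. By another measure, which is not separation, 16.9% and 13.5% of all genes tested in these classes had an unadjusted edgeR p under 0.05. In Astro-like nuclei the 7 Astro markers themselves were at 4301 to 5073 CPM in controls and 5200.3 to 5580.1 CPM in ALP TSs, and the 6 Ependymal markers at 309.6 to 384 and 397 to 629.7. The other 3 were lower in ALP TSs, with 440.1 to 609.8 and 329.7 to 397 CPM for ExN markers, 117.5 to 145 and 90.8 to 113 CPM for InN markers and 36.2 to 56.7 and 17.5 to 31.5 CPM for Endo markers. In Micro-like nuclei all 3 were neuronal and higher in ALP TSs, with 1660.2 to 2024 and 2243 to 2517 CPM for ExN, 252 to 467 and 483 to 557 CPM for Gran and 162.6 to 219 and 219.4 to 276 CPM for InN markers. In these lists the ExN marker NRGN and the InN markers GAD2 and SLC32A1 were at 0 in both classes. The 7 Micro markers in Astro-like nuclei overlapped, at 369.6 to 443.6 CPM in controls and 417.1 to 478.5 CPM in ALP TSs. The part of these nuclei in the TOMM40 difference was not tested, and TOMM40 itself was at 161 ± 38.3 in ExN-like and 1217 ± 554.0 in Ependymal-like nuclei.

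Outside these classes no call was made for TOMM40. In OPC-like nuclei it was 285 ± 51.8 in controls and 389 ± 46.5 in ALP TSs without overlap, but the log2 fold change of 0.47 (SE 0.17, edgeR adjusted p = 0.194) did not pass. In Oligo-like nuclei the normalised levels, 281 ± 23.3 in controls and 368 ± 80.0 in ALP TSs, did not overlap either, although the CPM values did. The log2 fold change there was 0.40 (SE 0.20, edgeR adjusted p = 0.275) and did not pass. Among Oligo-like nuclei, clusters 3, 6 and 9 held most control nuclei (35.3, 29.7 and 22.8%) and clusters 4 and 8 most ALP nuclei (38.5 and 25.6%). Each of these clusters had a TOMM40 level of 258 to 363 CPM. Of all genes, 1.59% were called in OPC-like and 4.93% in Oligo-like nuclei. The neuronal classes had log2 fold changes of 0.15 (SE 0.14) in InN-like, 0.07 (SE 0.24) in ExN-like and 0.01 (SE 0.25) in Gran-like nuclei, with background shares of called genes of 1.15%, 0% and 1.31%. Without the upper limit on genes per nucleus these values were 0.44, 0.50 and 0.41 (edgeR adjusted p = 0.0778, 0.131 and 0.283), higher than with it and not called. Endo-like (0.39, SE 0.47), Mural-like (0.56, SE 0.41) and Ependymal-like nuclei (-0.30, SE 0.36) did not pass either, in classes where edgeR called no gene (0%). Where edgeR called 0 genes, 2280 of 13330 in ExN-like, 85 of 1433 in Endo-like, 62 of 942 in Ependymal-like and 8 of 440 in Mural-like nuclei had an unadjusted p under 0.05, and DESeq2 called 295, 1, 0 and 0. In the sum of all kept nuclei the value was 0.51 (SE 0.22, edgeR adjusted p = 0.209).

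The difference in Astro-like and Micro-like nuclei was also set against InN-like, Oligo-like and Gran-like nuclei, by the log2 ratio of classes within each library. Astro-like and Micro-like are the classes where TOMM40 was called, so the ratios reuse those counts and are not separate evidence. The Astro-like to InN-like ratio of TOMM40 was 2.80 ± 0.43 in controls and 3.88 ± 0.28 in ALP TSs, and the Micro-like to InN-like ratio was 3.58 ± 0.09 and 4.78 ± 0.01 (SD, n = 3 each). Both did not overlap between groups, with an exact two-sided permutation p = 0.100, the smallest that 3 against 3 libraries can give (0.117 after Benjamini-Hochberg adjustment over 7 such comparisons). The ratios to Oligo-like and to Gran-like nuclei gave the same p. The Micro-like to Astro-like ratio was 0.78 ± 0.43 in controls and 0.90 ± 0.29 in ALP TSs (exact permutation p = 0.8).

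The share of nuclei with a TOMM40 UMI followed the levels. With each nucleus thinned to 1000 UMIs, which left out 59 control and 88 ALP nuclei, TOMM40 was found in 59.0, 63.9 and 52.5% of Astro-like nuclei of Control 1 to 3 and in 80.7, 77.2 and 78.4% of those of ALP 1 to 3. The groups did not overlap, and the difference of 20.3 percentage points had an exact two-sided permutation p = 0.100, the smallest possible. Unthinned, the means were 79.6% and 90.1%. In Micro-like nuclei the thinned means were 66.7 ± 5.81% and 81.4 ± 2.65%, a difference of 14.7 points (exact permutation p = 0.100), with 249 control and 410 ALP nuclei left out for depth. Thinned to 500 UMIs, with no nucleus left out, the shares were 54.6, 44.1 and 51.2% in controls and 74.8, 73.6 and 78.0% in ALP TSs, a difference in means of 25.5 points. No class should lack TOMM40, and the Gran-like share, thinned alike, was 19.5 ± 4.83% in controls and 18.2 ± 4.06% in ALP TSs at a median depth of 2867.5 UMIs, against 1880 in Astro-like nuclei.

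NECTIN2 differed from TOMM40 in its pattern. Its mean level was highest in Endo-like nuclei, at 46.1, 28.2 and 52.0 CPM in Control 1 to 3 and 45.9, 47.3 and 0 in ALP 1 to 3, which rest on 32 UMIs. The 0 in ALP 3 came from 40 nuclei, where a count of 3 would be 47.2 CPM, so that library cannot be told apart from the others. Mural-like nuclei had 22.1 ± 32.4 and Ependymal-like nuclei 11.6 ± 10.4, on 5 and 4 UMIs. In Astro-like nuclei NECTIN2 was 10.54, 5.37 and 8.75 in Control 1 to 3 and 5.96, 11.4 and 9.28 in ALP 1 to 3, and the groups overlapped. InN-like nuclei had 7.64 ± 2.34, Micro-like 6.94 ± 3.29, Oligo-like 5.51 ± 1.41, OPC-like 3.32 ± 1.43, ExN-like 2.03 ± 1.67 and Gran-like 0.822 ± 0.782 (SD, n = 6). Against neurons NECTIN2 was 1.09 higher in Astro-like and 0.82 higher in Micro-like nuclei on the log2(mean CPM + 1) scale.

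**Figure D4:**
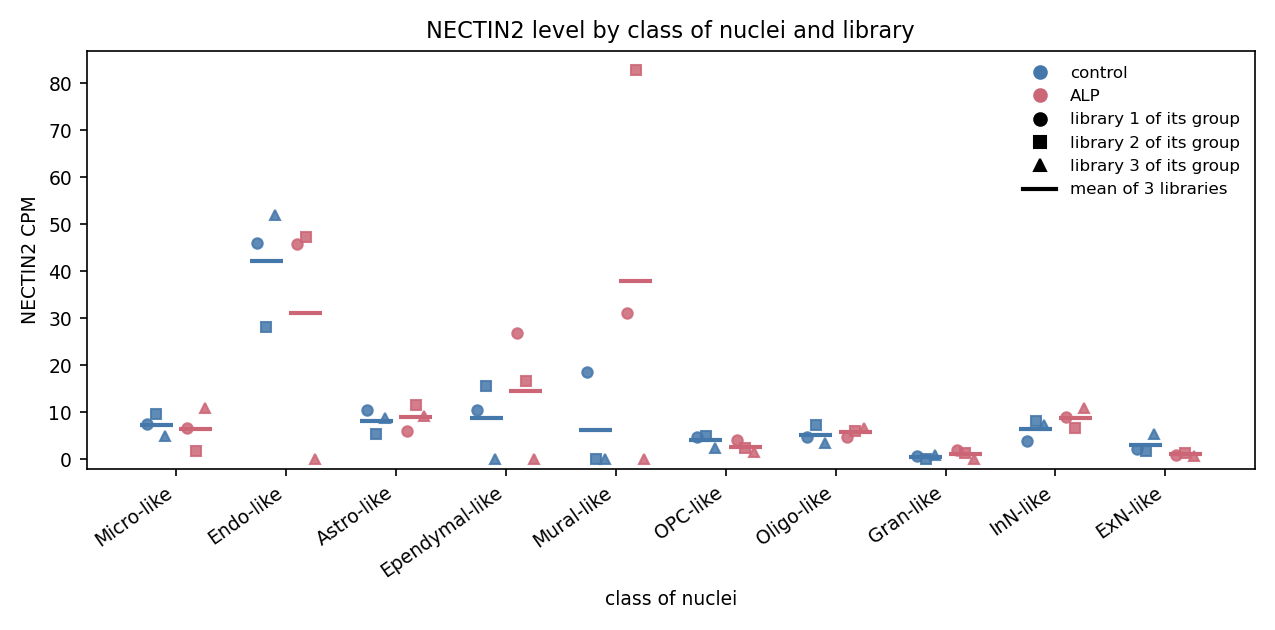
NECTIN2 level (CPM, linear axis) by class and library, with group means as bars, in the order of the TOMM40 plot. Endo-like nuclei have the highest mean, 36.6 CPM over 6 libraries, and several libraries of small classes are at 0.

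NECTIN2 reached the count filter in Astro-like, InN-like and Oligo-like nuclei, and no call was made. Its log2 fold changes were 0.28 (SE 0.42, edgeR adjusted p = 0.779), 0.59 (SE 0.41, edgeR adjusted p = 0.469) and 0.49 (SE 0.44, edgeR adjusted p = 0.562). In all kept nuclei it had 161 UMIs in controls and 151 in ALP TSs, with a log2 fold change of 0.01 (SE 0.27). The Astro-like test rested on 31 UMIs in controls and 28 in ALP TSs, with a standard error of 0.42 against 0.19 for TOMM40.

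The pathway genes around the members gave no call in any named class with edgeR or DESeq2. In the sum of all kept nuclei DESeq2 called CYP46A1, with a log2 fold change of 0.98 (DESeq2 adjusted p = 0.0132), which edgeR did not call. DESeq2 called 7.62% of 22755 genes in that sum and edgeR called 0, with 5328 at an unadjusted p under 0.05. Of the import list 9 genes were tested in Astro-like and 7 in Micro-like nuclei, and 0 were called by edgeR or DESeq2, while 2 and 1 had an unadjusted p under 0.05, as 16.9% and 13.5% of all genes tested in these classes did. Their median log2 fold changes were 0.10 and 0.37, against -0.01 and 0.01 over all genes tested. The import median was positive elsewhere too, with 0.40 in Oligo-like, 0.36 in InN-like, 0.35 in ExN-like, 0.27 in Gran-like and 0.16 in OPC-like nuclei. MTX2, the import gene with most UMIs, had 0.10 in Astro-like (edgeR adjusted p = 0.849) and 0.76 in Micro-like nuclei (0.161). MTX1 had the value 1.42 in Astro-like nuclei, which did not pass (edgeR adjusted p = 0.119). Of the lipoprotein list 17 and 15 genes were tested in these classes, 0 were called by either tool, 2 and 1 had an unadjusted p under 0.05, and the medians were 0.19 and 0.03. CLU had a log2 fold change of 0.53 in Astro-like nuclei (edgeR adjusted p = 0.332), and ABCA1 had 0.26 in Astro-like and -0.34 in Micro-like nuclei (0.584 and 0.568). Of the nectin list, which holds the nectins, their CADM relatives, the linker AFDN and their immune receptors, 6 and 4 genes were tested, 0 were called by either tool and 1 in each class had an unadjusted p under 0.05. NECTIN3, a partner of NECTIN2 in cell contacts, had -0.88 in Astro-like nuclei (edgeR adjusted p = 0.130), CADM2 and CADM1, which hold most UMIs of the list, had -0.01 and 0.05, and AFDN had -0.09. In Micro-like nuclei CADM1 had 0.97 (edgeR adjusted p = 0.131), which passed without Control 2 (1.26, edgeR adjusted p = 0.00928). The neighbouring gene CLPTM1 and the genes MARK4 and ERCC1, taken from the human gene order, were tested in Astro-like nuclei. They had 0.12, -0.43 and 0.09, and none was called.

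**Figure D5:**
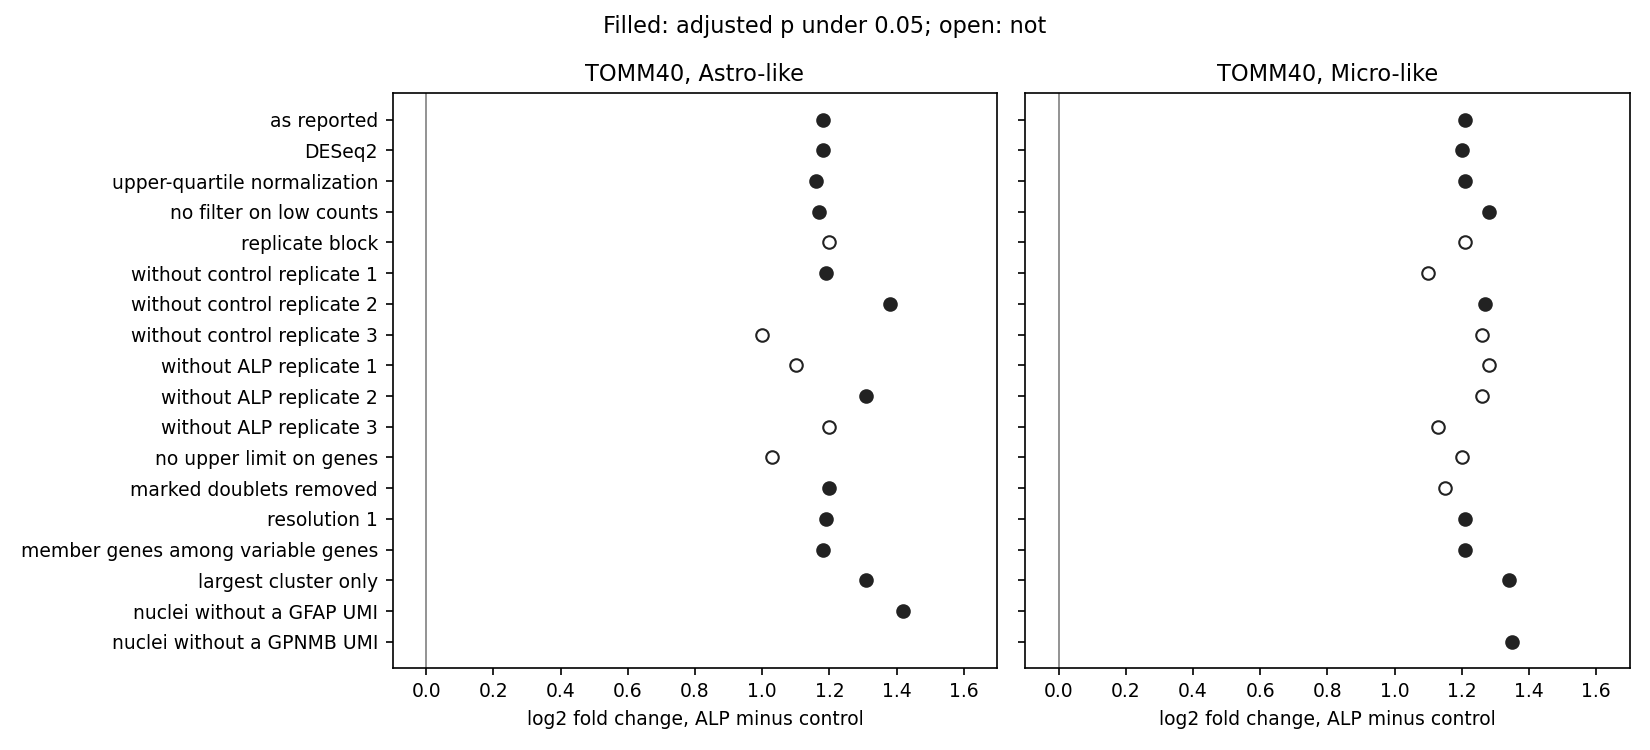
Log2 fold change of TOMM40, ALP minus control, in Astro-like (left) and Micro-like nuclei (right) under each alternative processing; filled points have an adjusted p under 0.05. The values stay between 1.00 and 1.42, and open points include the fit with a replicate block and most fits without 1 library.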

How the data were processed

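The deposited matrices hold raw UMI counts per feature and barcode, made by the authors with Cell Ranger against the TreeshrewDB genome. The submitters' processing notes name version 3.1.0 and the file headers 6.1.2, and the build and strand setting are not given in the sources used here. Members and lists were chosen with earlier results of these data known. The study's filters were applied (200 to 2500 genes, mitochondrial share up to 5%). Nuclei were clustered (2000 variable genes without the members, 30 principal components, leidenalg 0.10.2, resolution 2), and clusters were named from at least 3 markers. Clusters with over 15% marked doublets, or with a median depth under 0.5 of their libraries' and none of their markers among the top 10 genes, stayed unnamed. The latter limit was set after seeing the data. A cluster also stayed unnamed where its top 10 genes held more markers of another class than of its own. Marked doublets otherwise stayed in. Sums of UMIs over each class in each library were tested with edgeR 4.0.16 (quasi-likelihood, TMM, filterByExpr with a minimum count of 10), with classes of at least 10 nuclei in every library. DESeq2 1.42.0 was an alternative. The study itself used a mixed model over nuclei, replaced here because nuclei are not replicates. That model also held sex, UMI count and the mitochondrial and ribosomal shares, whereas the main fits here held the group only. The edgeR script was tested on simulated data. Share and ratio differences had exact two-sided permutation tests over libraries. Named genes were the members, the listed and neighbouring genes, the 4 list members with most UMIs plus any called, and the 5 features most like TOMM40. List genes named for another value, such as MTX1, TOMM40L, ABCA1, TYROBP, VLDLR, SCARB1, LRP8 and TOMM20, were chosen after their values were seen.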

Additional observations from a re-analysis of the deposited data

How the results depend on the processing

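Calls of the member genes depended on the processing more than their direction did. The 2 calls fell to 0 with a replicate block or without an upper limit on genes, to 1 with marked doublets removed, and to between 0 and 2 without 1 library. The log2 fold change of TOMM40 in Astro-like nuclei was 1.03 without the limit and 1.00 to 1.38 without 1 library. In Micro-like nuclei it was 1.20 without the limit, 1.15 with marked doublets removed and 1.10 to 1.28 without 1 library. Same-numbered libraries did not deviate together (correlations of -0.111, -0.0597 and -0.0969), so the numbers do not pair them, and with the replicate block TOMM40 had 1.20 in Astro-like (adjusted p = 0.0789) and 1.21 in Micro-like nuclei (0.200). The pathway lists gave 2 calls with no filter on low counts, 1 without the limit on genes and 0 to 3 without 1 library, against 0. Mean TOMM40 levels moved to 5096 CPM in Micro-like and 133 CPM in InN-like nuclei without the limit. Nuclei were clustered anew in that setting, so these classes did not hold the same nuclei. Uncalled directions turned for TOMM40 in Gran-like nuclei with DESeq2 (-0.02), with the block (-0.03), without Control 1 (-0.22) and without ALP 3 (-0.18), in ExN-like nuclei without Control 1 (-0.05), Control 2 (-0.02) or ALP 3 (-0.02), in Endo-like nuclei without ALP 3 (-0.48), and in Ependymal-like nuclei without Control 2 (0.26) or the limit (0.06). Without 1 library the highest values were 0.23, 0.39 and 0.85 in Gran-like, ExN-like and Endo-like nuclei, and the lowest was -0.65 in Ependymal-like nuclei. The causes were not tested, and the other 240 of 278 values kept their direction and side of the threshold. With 3 libraries per group, exact tests cannot pass 0.05, and APOE's depth of 3 UMIs allows no comparison, so no alternative was run for its ratio or joint detection.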
